A study of Drosophila melanogaster with 9 samples.

Results

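The transferrins, the ferritin subunits and the iron importer of the NRAMP family were followed in RNA-seq libraries of fly brains. The set was defined by gene name and not by a cut on measured values, but it was chosen with earlier results of these data known. It holds 7 of the 17562 genes in the deposited tables: the transferrins Tsf1, Tsf2 and Tsf3, the ferritin subunits Fer1HCH, Fer2LCH and Fer3HCH, and Malvolio (Mvl). Each of the 9 libraries held polyA RNA of 20 pooled brains, taken from Drosophila melanogaster females that were 4 to 6 days old. PGRP-LB mutants fed Ecc15, a Gram-negative bacterium (Erwinia carotovora carotovora 15), for 16 h formed the first group, wild-type flies fed Ecc15 for 16 h the second, and non-infected wild-type flies the control, with 3 libraries in each. The series' design text describes a diet of 24 h and names sucrose as the control diet. PGRP-LB encodes a secreted amidase that degrades bacterial peptidoglycan, the cell wall polymer that triggers the fly's Imd immune pathway. The sample labels do not name the PGRP-LB allele, and the deposited columns mark the mutant as PGRP-LBD without explaining the D. The 9 libraries include no mutants without the bacterium, so that genotype, strain and exposure cannot be told apart in the mutant comparison.

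Iron is needed by bacteria and host alike, and free iron is toxic, so animals carry it on transferrins, store it in ferritin shells and move it through membranes with dedicated transporters. In Drosophila, Tsf1 is the iron-carrying transferrin of the haemolymph, is secreted chiefly by the fat body and takes part in the withdrawal of iron from the haemolymph during infection. Fly ferritin is assembled in the secretory pathway from a heavy chain with ferroxidase activity, Fer1HCH, and a light chain, Fer2LCH. Translation of ferritin and other iron genes in animals can be set by iron regulatory proteins, a step that RNA levels do not measure.

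All values are the deposited normalized counts, and libraries carry the marks S1, S2 and S3 of the deposited columns, which order nothing. Each exposed group sits in a table of its own with the same 3 control libraries, scaled separately, so that control values differ slightly between the tables and the comparisons share their controls. The normalized totals were 25.3 to 27.8 M per library, from an estimated 19.4 to 30.7 M counted reads. All 14 neuron markers were detected in every group. The eye-colour gene w had 11962, 18926 and 11128 normalized counts in PGRP-LB Ecc15 libraries, against 5, 6 and 13 in controls. Whether this w difference belongs to the PGRP-LB allele or to the strain background was not tested. PGRP-LB itself had 687, 1359 and 721 normalized counts in PGRP-LB Ecc15 libraries, against 164, 120 and 151 in controls, which does not check the genotype because the altered part of the gene is not given. DptA, an antibacterial peptide gene of the Imd pathway, had 59179 to 134159 normalized counts in PGRP-LB Ecc15 brains, 874 to 3150 in WT Ecc15 brains and 25 to 40 in controls. Photoreceptor markers summed to 35534 to 164343 in PGRP-LB Ecc15 libraries, 105636 to 241977 in WT Ecc15 libraries and 64577 to 388328 in control libraries. These sums varied widely within every group, and the cause was not tested.

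Tsf1, Tsf3 and Mvl rose in the brains of exposed PGRP-LB mutants relative to unexposed wild-type brains, by 4.87-fold, 7.90-fold and 2.06-fold, while the 2 chains of secreted ferritin did not pass the test. These were 3 members called higher and 0 called lower of 7 tested (limma, adjusted p under 0.05), beside 9.65% of all 13384 genes tested called higher and 6.26% called lower. Those shares are 1292 genes higher and 838 lower, and quantile normalization gave 1054 higher and 1298 lower. An unadjusted p under 0.05 was reached by 4 members, the 3 called and Tsf2, beside 31.5% of all genes. In the authors' deposited table the same 3 members have an adjusted p under 0.05 in this comparison, beside 9.03% of its genes higher and 6.19% lower. In exposed wild-type brains 0 of 6 tested members were called higher or lower, beside 0.122% of 13085 genes called higher and 0% called lower. At an unadjusted p under 0.05 there were 2 members, Tsf1 and Mvl, beside 7.28% of all genes, and in the authors' deposited table these same 2 genes had an adjusted p under 0.05 (0.83% of its genes higher and 0.113% lower). Fold changes are on the scale of log2(normalized count + 1) and understate the change of low genes.

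**Figure D1:**
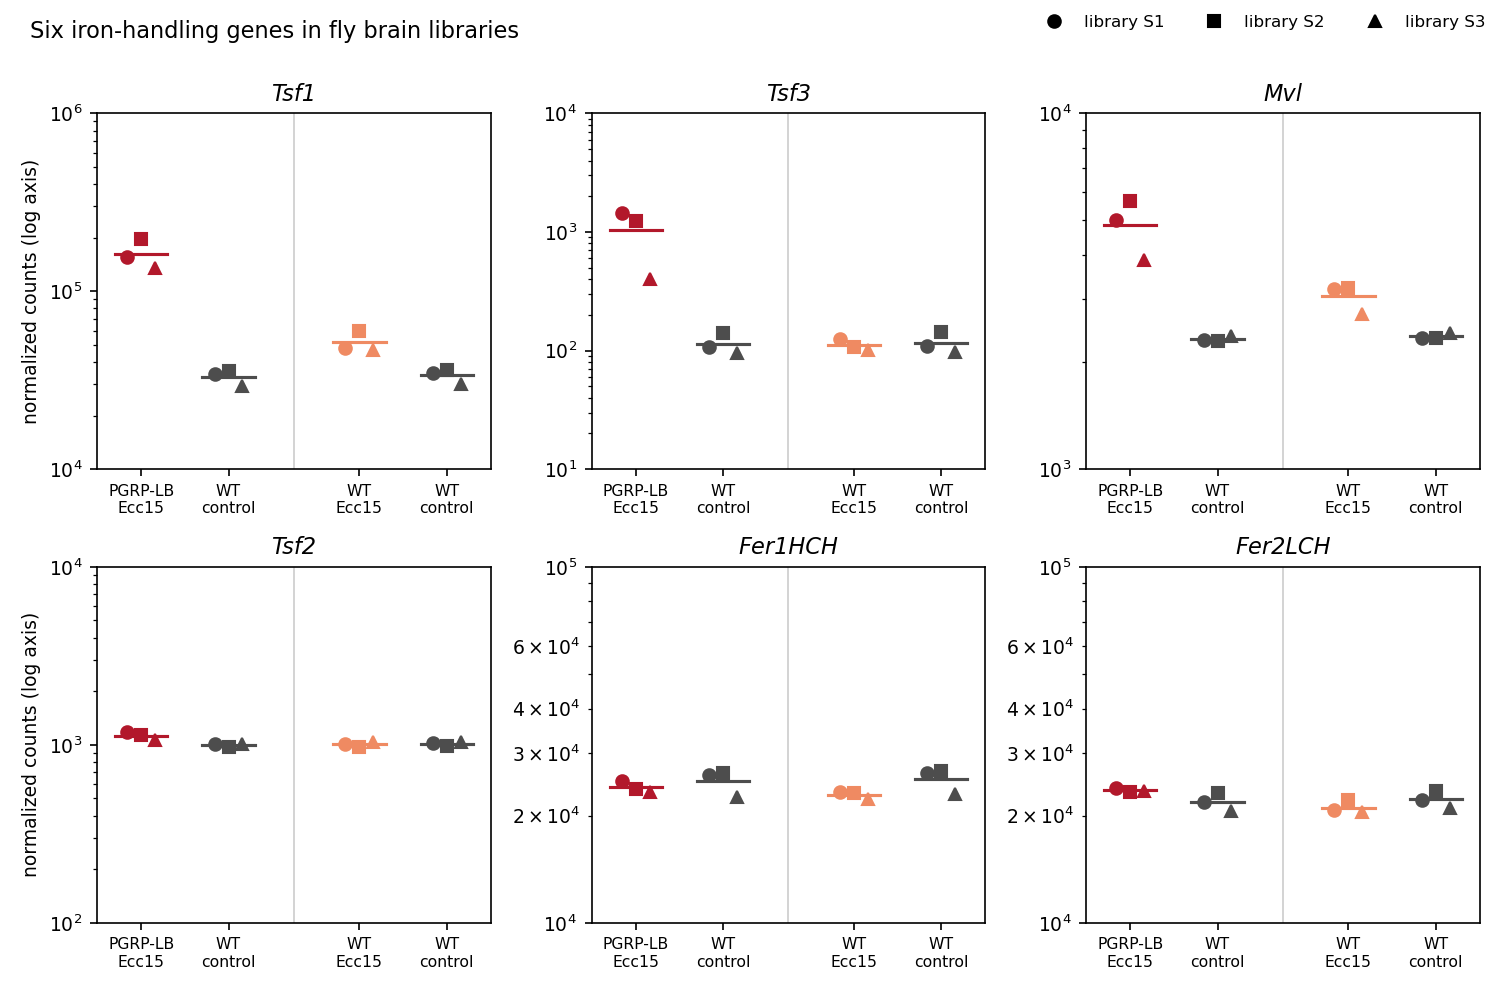
Normalized counts (log axis) of 6 of the 7 genes in each of the 9 libraries, with a point for each library and a bar at the group mean. The same 3 control libraries are drawn beside each exposed group, as scaled with that group. Fer3HCH is left out because most of its values are 0. For Tsf1, Tsf3 and Mvl all 3 PGRP-LB Ecc15 libraries lie above all controls, for example 135109 to 196986 for Tsf1 against 29444 to 35708.

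Tsf1 (FBgn0022355; chromosome X, 18387084 to 18390344, forward strand, in the Ensembl 115 annotation of BDGP6) carried most of the transferrin signal. In PGRP-LB Ecc15 brains it had 155479, 196986 and 135109 normalized counts, against 34095, 35708 and 29444 in controls. All 3 mutant libraries lay well above all 3 controls, and the lowest mutant library was 3.78 times the highest control. The means were 162525 ± 31535 in PGRP-LB Ecc15 and 33082 ± 3252 in control brains (SD, n = 3 each), a 4.87-fold difference with a 95% confidence interval of 3.80 to 6.24 and limma's adjusted p = 0.000194. The authors' deposited table gives 4.91-fold with adjusted p = 2.95e-56 for Tsf1.

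In WT Ecc15 brains Tsf1 had 48083, 59996 and 46715 normalized counts, against 34551, 36305 and 30061 in controls. Again every exposed library was above every control, by a smaller margin. The log2 difference was 0.61 ± 0.12 (SE), or 1.53-fold, which limma did not call (adjusted p = 0.226) and the authors' deposited table does (1.53-fold, adjusted p = 4.01e-05). As a share of all normalized counts in a library, Tsf1 made up 0.585%, 0.709% and 0.507% in PGRP-LB Ecc15, 0.179%, 0.227% and 0.175% in WT Ecc15, and 0.135%, 0.136% and 0.115% in control brains. It was the gene with the 5th or 6th highest normalized count in each PGRP-LB Ecc15 library, and ranked 18 to 35 in the exposed wild type and 53 to 73 in controls. Tsf1 supplied 96.4% to 98.9% of the counts of the 3 transferrins in every library.

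Tsf3 (FBgn0034094; chromosome 2R, 16226501 to 16229869, forward strand), a transferrin-family protein, had the largest fold change of the 6 genes detected in controls, and the widest spread. It had 1445, 1244 and 403 normalized counts in PGRP-LB Ecc15 brains, against 107, 140 and 96 in controls. The S3 library of the mutant lay 3.59-fold under the S1 library, yet was still 2.88 times the highest control. The fold change was 7.90 with a 95% confidence interval of 3.72 to 16.8 and limma's adjusted p = 0.00672, and the authors' deposited table gives a log2 change of 3.17 with adjusted p = 2.59e-07. Tsf3 had 126, 108 and 101 normalized counts in WT Ecc15 brains, against 109, 142 and 98 in controls, with overlapping groups and a log2 difference of -0.05 ± 0.20 (SE, adjusted p = 0.969).

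The whole span of Tsf3 lies opposite CG15706, with which it shares 169 exon bases on opposite strands. The library kit keeps the strand, but the setting used in counting is not given in the sources used here. CG15706 had 502, 538 and 506 normalized counts in PGRP-LB Ecc15 brains, against 788, 747 and 798 in controls. For CG15706 all 3 mutant libraries thus lay below all 3 controls, where for Tsf3 they lay above.

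Tsf2 (FBgn0036299; chromosome 3L, 12530436 to 12533724, reverse strand) is the fly counterpart of melanotransferrin and is needed for septate junctions, the seals between epithelial cells. Its normalized counts were 1176, 1136 and 1067 in PGRP-LB Ecc15 brains, against 1011, 974 and 1011 in controls. The groups did not overlap, but the log2 difference of 0.17 ± 0.07 (SE) was not called (limma's adjusted p = 0.139). Tsf2 had 1010, 977 and 1044 normalized counts in WT Ecc15 brains, against 1025, 991 and 1032 in controls, and the groups overlapped (log2 difference -0.01, adjusted p = 0.987).

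Mvl (FBgn0011672; chromosome 3R, 21051383 to 21060800, reverse strand) encodes a divalent metal transporter of the NRAMP family, the fly counterpart of mammalian DMT1, and moves iron and manganese. PGRP-LB Ecc15 brains had 5026, 5665 and 3866 normalized counts, against 2305, 2297 and 2364 in controls. The controls were tightly grouped and every mutant library was at least 1.64 times the highest of them. The means were 4852 ± 912 in PGRP-LB Ecc15 and 2322 ± 36.6 in control brains (SD, n = 3 each), a 2.06-fold difference with a 95% confidence interval of 1.66 to 2.56 and limma's adjusted p = 0.00297. WT Ecc15 brains had 3213, 3221 and 2736 normalized counts of Mvl, against 2336, 2336 and 2413 in controls. All 3 exposed wild-type libraries exceeded the controls, with a log2 difference of 0.37 ± 0.07 (SE), which limma did not call (adjusted p = 0.245) and the authors' deposited table does (adjusted p = 0.00643).

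**Figure D2:**
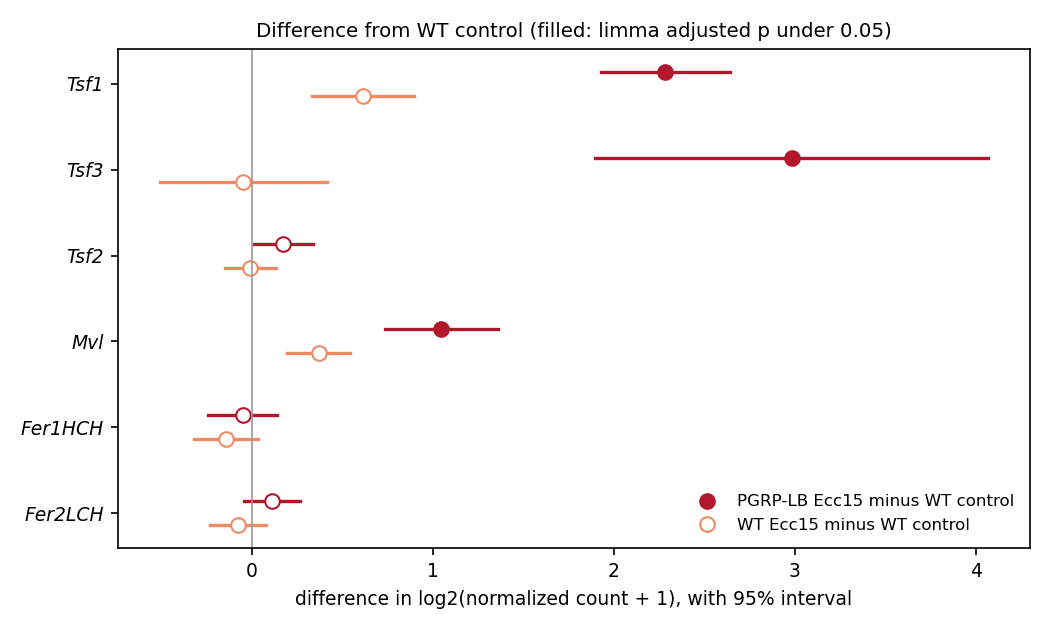
Log2 change of each gene except Fer3HCH, which is not drawn, with limma's 95% confidence intervals. The comparisons are PGRP-LB Ecc15 against WT control brains and WT Ecc15 against WT control brains. Tsf1, Tsf3 and Mvl lie clear of 0 in the mutant comparison at 2.28, 2.98 and 1.05, while Fer1HCH and Fer2LCH lie at -0.05 and 0.11; both comparisons use the same controls.

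Groups did not overlap for 5 of the 7 genes in the mutant comparison (Tsf1, Tsf2, Tsf3, Mvl and Fer2LCH), all higher in the mutant, beside 18.8% of all genes tested that were higher without overlap. In the wild-type comparison Tsf1 and Mvl were the 2 members without overlap, both higher, beside 6.93% of all genes tested. With 3 libraries against 3, the exact two-sided permutation test of a single gene cannot give a p below 0.1, and it gave 0.1 for each of these genes. Set directly against each other after the separately scaled tables were put on a common scale, PGRP-LB Ecc15 brains had 4 of 6 tested members called higher than WT Ecc15 brains and 0 lower (limma), beside 9.92% of all genes higher and 6.63% lower.

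The ferritin heavy chain Fer1HCH (FBgn0015222; chromosome 3R, 30385573 to 30388178, reverse strand) had 24987, 23831 and 23345 normalized counts in PGRP-LB Ecc15 brains, against 26042, 26317 and 22526 in controls. In WT Ecc15 brains it had 23233, 23193 and 22293, against 26390, 26756 and 22998 in controls. The groups overlapped in both comparisons. The log2 difference was -0.05 in the mutant comparison (95% confidence interval -0.24 to 0.14, limma's adjusted p = 0.717) and -0.14 in the wild-type comparison (-0.32 to 0.03, adjusted p = 0.704).

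The light chain Fer2LCH (FBgn0015221; chromosome 3R, 30387804 to 30390584, forward strand) had 23962, 23358 and 23441 normalized counts in PGRP-LB Ecc15 brains, against 21909, 23097 and 20633 in controls. The mutant libraries all exceeded the controls, the nearest pair by little. The log2 difference was 0.11 (95% confidence interval -0.05 to 0.27, limma's adjusted p = 0.299). Fer2LCH had 20736, 22064 and 20439 normalized counts in WT Ecc15 brains, against 22201, 23482 and 21065 in controls, with overlap and a log2 difference of -0.08 (-0.23 to 0.08, adjusted p = 0.828). For both chains these intervals exclude the log2 changes seen for Tsf1, Tsf3 and Mvl in the mutant.

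The ratio of heavy to light chain counts does not depend on the scaling of a library. It was 1.043, 1.020 and 0.996 in PGRP-LB Ecc15, 1.120, 1.051 and 1.091 in WT Ecc15, and 1.189, 1.139 and 1.092 in control brains. Every mutant library had a lower ratio than every library of the other groups, and the WT Ecc15 and control libraries overlapped. The mean ratio was 1.02 ± 0.0234 in PGRP-LB Ecc15, 1.09 ± 0.0347 in WT Ecc15 and 1.14 ± 0.0485 in control brains (SD, n = 3 each). Exact two-sided permutation tests gave p = 0.1 for the mutant against control, the smallest possible, and p = 0.2 for WT Ecc15 against control. The 2 genes lie head to head and overlap over 375 bases (30387804 to 30388178), 118 of them exonic in both on opposite strands, so reads in this stretch could be split between them in a way that was not tested.

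**Figure D3:**
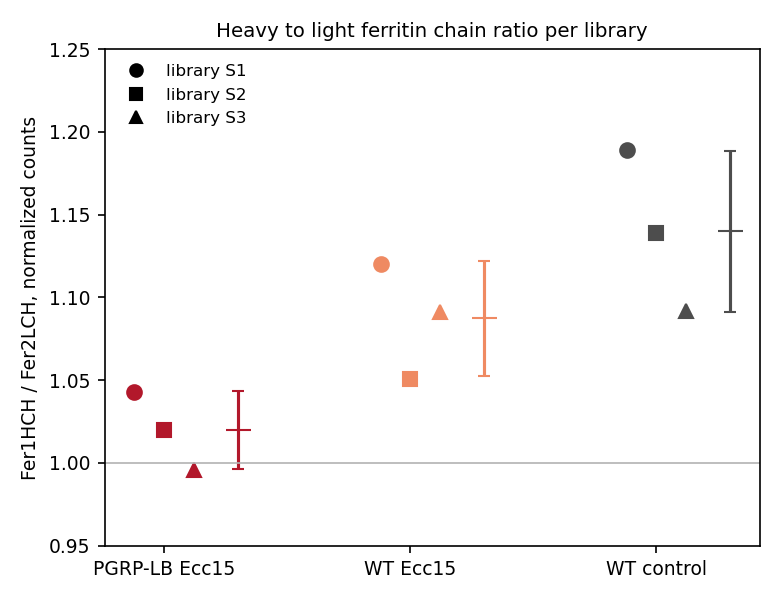
Ratio of Fer1HCH to Fer2LCH normalized counts in each of the 9 libraries, with the group mean and SD. The 3 PGRP-LB Ecc15 libraries lie at 0.996 to 1.043, under the control libraries at 1.092 to 1.189, with WT Ecc15 libraries at 1.051 to 1.120.

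Fer3HCH (FBgn0030449; chromosome X, 13107382 to 13108194, reverse strand), the mitochondrial ferritin of the fly, was at the edge of detection. It had 5, 0 and 2 normalized counts in PGRP-LB Ecc15, 0, 1 and 0 in WT Ecc15, and 0 in all 3 control libraries. It passed the filter on low values in the mutant comparison alone, through the mutant libraries, and was not called there (limma's adjusted p = 0.228). The gene lies within Chpf on the same strand and shares no exon bases with it.

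Levels of different genes were compared as mean normalized counts per kb of exon. Exon length joined the exons of all annotated transcripts, 9 for Fer1HCH, 6 for Mvl, 5 for Fer2LCH and 1 or 2 for each transferrin. Close orders between genes can depend on this choice. In PGRP-LB Ecc15 brains the order was Tsf1 (56946 per kb), Fer2LCH (14313), Fer1HCH (10124), Mvl (859), Tsf3 (434), Tsf2 (391) and Fer3HCH (3.11). In WT Ecc15 brains it was Tsf1 (18079), Fer2LCH (12791), Fer1HCH (9641), Mvl (541), Tsf2 (350), Tsf3 (47.0) and Fer3HCH (0.444). In control brains of the PGRP-LB table it was Fer2LCH (13277), Tsf1 (11592), Fer1HCH (10506), Mvl (411), Tsf2 (346) and Tsf3 (48.1), with Fer3HCH at 0. In the mutant, where their SDs were 233 and 19.1 per kb, Tsf3 lay above Tsf2 in the S1 and S2 libraries and under it in S3. Tsf1 and Fer1HCH lay close in controls, where the SDs were 1140 and 890 per kb. Within each control library Tsf1 was above Fer1HCH (11946, 12512 and 10317 against 10960, 11076 and 9481 per kb in S1, S2 and S3). Fer2LCH and Tsf1 also lay close in controls, at 13277 ± 748 and 11592 ± 1140 per kb (SD, n = 3 each). By this measure Tsf1 ranked 11 in the mutant group, 51 in the WT Ecc15 group and 104 in controls among 16839 genes with an annotated length.

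Markers of fat body, the tissue that secretes Tsf1, were present in these dissected brains and varied widely. The 16 fat body markers summed to 102784, 564085 and 218801 normalized counts in PGRP-LB Ecc15 libraries, against 264980, 231633 and 108838 in controls. A few abundant markers weigh most in such a sum. As a mean of log2(normalized count + 1) over the same markers, PGRP-LB Ecc15 libraries had 8.18, 9.43 and 8.52, against 7.90, 8.13 and 7.45 in controls. By the sum the groups overlapped, with the mutant S1 library under every control, and by the mean log2 all 3 mutant libraries lay above all 3 controls, as they did for Tsf1. In the wild-type table the sums were 305099, 422556 and 393746 in WT Ecc15 libraries, against 268515, 235501 and 111120 in controls, so that fat body markers and Tsf1 were both above every control there, and the mean log2 values (8.68, 9.22 and 8.77 in WT Ecc15 libraries, against 7.91, 8.15 and 7.48 in controls) were likewise above every control. On the common scale 0 of 14 fat body markers tested were called higher or lower in PGRP-LB Ecc15 against WT Ecc15 brains. Over all genes 9.92% were called higher and 6.63% lower there. The median log2 difference of these markers was -0.456, with 4 above 0, while Tsf1 was 3.21-fold higher. The part of fat body RNA in any of these Tsf1 differences was not tested. Of the fat body markers tested, 4 of 14 were called higher in the mutant comparison (beside 9.65% of all genes) and 0 of 13 in the wild-type comparison (beside 0.122%). In the wild-type comparison 7 had an unadjusted p under 0.05, beside 7.28% of all genes. The authors' deposited table calls 3 fat body markers higher there (beside 0.83% of its genes), Lsp1beta, Lsp2 and CG10621, as it does Tsf1. Lsp1alpha and Npc2e were at 0 in every WT Ecc15 and control library, Fbp2 also in every control library, and Npc2e in every mutant library.

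Markers of other tissues were summed in the same way. In WT Ecc15 libraries the 15 haemocyte markers summed to 72816, 93292 and 92796, against 67229, 68622 and 52796 in controls, so these too were above every control. There limma called 0 of 15, and 8 had an unadjusted p under 0.05, beside 7.28% of all genes. The authors' deposited table calls 5 of the 15 higher there, beside 0.83% of its genes: Hml, Sr-CI, eater, NimC1 and Ppn. The same haemocyte markers summed to 33352, 65903 and 43856 in PGRP-LB Ecc15 libraries, against 66347, 67495 and 51709 in controls, and 5 of 15 were called lower, beside 6.26% of all genes. The 21 gut markers summed to 4146, 6954 and 3875 in PGRP-LB Ecc15 libraries, against 835, 617 and 494 in controls. Of 16 tested, 4 were called higher, beside 9.65% of all genes, and zetaTry was at 0 in the mutant. Most of that sum came from the amylase genes Amy-p (1754, 2722 and 1589 in PGRP-LB Ecc15 libraries, against 25, 14 and 26 in controls) and Amy-d (1786, 3393 and 1722, against 98, 134 and 86 in controls). Not every gut marker was higher, as the protease gene Jon65Aiii had 8, 14 and 0 in PGRP-LB Ecc15 libraries, against 53, 6 and 4 in controls, and by the mean log2 of the list the groups overlapped (3.23, 4.22 and 3.29, against 3.26, 2.02 and 2.46 in controls). The 14 glia markers summed to 165528 to 178148 in PGRP-LB Ecc15 libraries, against 195664 to 234573 in controls. Of these, 1 was called higher and 6 lower, beside 9.65% and 6.26% of all genes. The 13 muscle markers summed to 23461 to 38285 in PGRP-LB Ecc15 libraries, against 8819 to 19688 in controls. Of these, 2 were called higher, a count near the 9.65% of all genes. An unadjusted p under 0.05 was reached by 7 of the 13, beside 31.5% of all genes. Their median log2 change was 1.3, with 9 above 0, beside a median of 0.0114 over all genes. Against WT Ecc15 brains on the common scale 7 of the 13 were called higher, beside 9.92% of all genes. The part of these cell types in the values of Tsf1, Tsf3 and Mvl was not tested, and in bulk tissue a change in the number of cells of a type and a change in RNA per cell cannot be told apart.

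**Figure D4:**
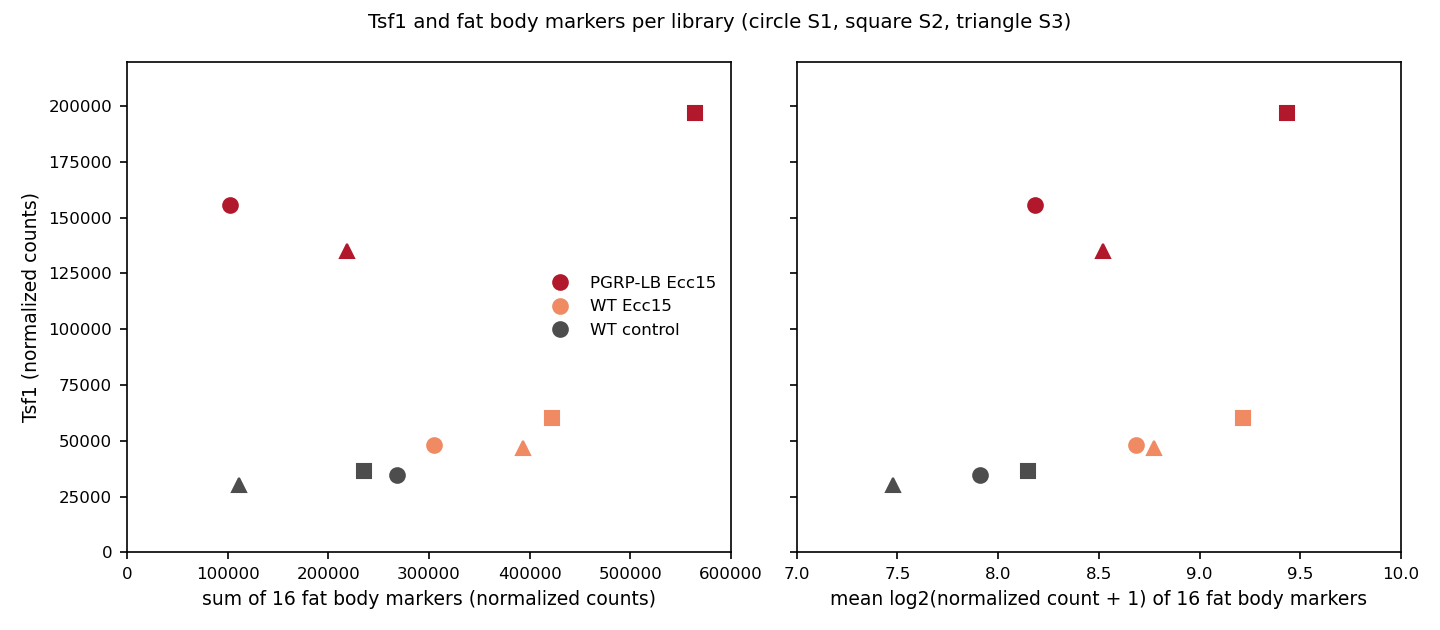
Tsf1 normalized counts of each library against the summed normalized counts (left) and the mean log2(normalized count + 1) (right) of 16 fat body markers; controls are drawn as scaled in the wild-type table. By the sum the PGRP-LB Ecc15 libraries spread from 102784 to 564085 and overlap the controls, and by the mean log2 they lie at 8.18 to 9.43, above the controls at 7.48 to 8.15.

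Of 34 other iron genes tested in 4 lists, 4 were called higher and 0 lower in the mutant comparison, beside 9.65% and 6.26% of all genes, so that the count of 4 is near the background. An unadjusted p under 0.05 was reached by 12 of the 34, beside 31.5% of all genes, and the median log2 change was 0.00 beside 0.01 over all genes tested. In the wild-type comparison 0 were called, beside 0.122% of all genes higher and 0% lower. There 4 had an unadjusted p under 0.05, beside 7.28% of all genes, and the median was -0.05 beside 0.00 over all genes. Among transport, uptake and ferroxidase genes 3 of 9 tested were called higher in the mutant comparison, beside 9.65% of all genes. Mco1, a multicopper oxidase that affects iron homeostasis in the fly, had 2087, 2140 and 383 normalized counts in PGRP-LB Ecc15 brains, against 7, 28 and 13 in controls, a fold change of 80.9 (limma's adjusted p = 0.0022). As for Tsf3, the S3 library was the lowest of the mutant libraries and lay above every control, here by 13.7 times. Zip99C, an iron transporter of the ZIP family that supplies the secretory pathway in the fly, had 4255, 3638 and 3357 in PGRP-LB Ecc15 brains, against 1702, 1723 and 1595 in controls, a 2.23-fold rise (adjusted p = 0.000477). CG8399 had 540, 649 and 548 in PGRP-LB Ecc15 brains, against 294, 272 and 172 in controls, 2.40-fold higher (adjusted p = 0.00877). The mitochondrial iron carrier mfrn was not called (log2 difference 0.20, adjusted p = 0.0567). In WT Ecc15 brains Zip99C had 1993, 2436 and 2190 normalized counts, against 1724, 1751 and 1628 in controls, which limma did not call (adjusted p = 0.305) and the authors' deposited table does (adjusted p = 0.0206).

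**Figure D5:**
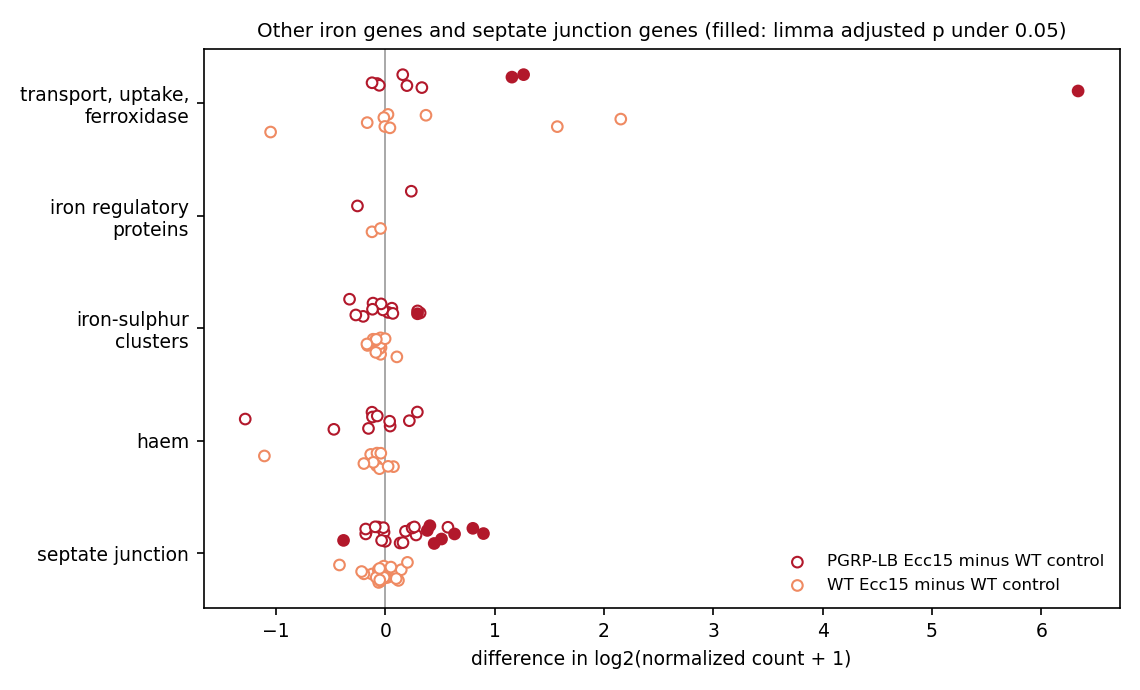
Log2 change of the other iron genes and the septate junction genes by list (filled points, limma's adjusted p under 0.05), in PGRP-LB Ecc15 against WT control and in WT Ecc15 against WT control brains. Mco1 at 6.34, CG8399, Zip99C at 1.16 and IscU are the 4 iron genes called higher in the mutant comparison.

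The genes of the iron regulatory proteins, of which Irp-1A can bind ferritin messages when iron is scarce, were not called in either comparison by limma as set here. Irp-1A had 1511, 1568 and 1540 normalized counts in PGRP-LB Ecc15 brains, against 1893, 1965 and 1671 in controls (log2 difference -0.26, limma's adjusted p = 0.0658), and it passed without the control S3 library (-0.33, adjusted p = 0.0242) and under quantile normalization (-0.32, adjusted p = 0.0266), within a range of 0.0242 to 0.191 over all alternatives. Irp-1B had 3222, 4255 and 3472 in PGRP-LB Ecc15 brains, against 3279, 2989 and 2969 in controls (0.24, adjusted p = 0.186). In WT Ecc15 brains the log2 differences of Irp-1A and Irp-1B were -0.12 (adjusted p = 0.75) and -0.04 (adjusted p = 0.90).

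Of 13 iron-sulphur cluster genes tested, the scaffold gene IscU alone was called in the mutant comparison, beside 9.65% of all genes higher and 6.26% lower. IscU had 9919, 9300 and 9836 normalized counts in PGRP-LB Ecc15 brains, against 8254, 7650 and 7811 in controls (1.22-fold, limma's adjusted p = 0.018). Leaving out the mutant S1, mutant S3 or control S2 library, or the intensity trend, ended that call (adjusted p = 0.0701 to 0.0746). The frataxin gene fh (log2 difference -0.33, adjusted p = 0.0707), CIAPIN1 (0.32, adjusted p = 0.0978) and the ferredoxin gene Fdx2 (-0.27, adjusted p = 0.101) were not called. None of the 10 haem genes tested was called in the mutant comparison by limma, beside 9.65% of all genes higher and 6.26% lower. An unadjusted p under 0.05 was reached by 3 of the 10, beside 31.5% of all genes. Of the 10, 1 was called lower in the authors' deposited table, beside 6.19% of its genes. That gene was Uros1, of haem synthesis, with 270, 229 and 240 normalized counts in PGRP-LB Ecc15 brains, against 300, 375 and 353 in controls (limma's log2 difference -0.47, adjusted p = 0.0535). Uros1 was called lower in 4 alternatives: a minimum mean of 10 (adjusted p = 0.0489), robust variance shrinkage (0.0481), without the control S1 library (0.0477) and quantile normalization (0.0376). Over all alternatives its adjusted p ranged from 0.0376 to 0.164. FeCH, Ppox and Uros2, of the same pathway, had adjusted p values of 0.121, 0.145 and 0.278.

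Septate junction genes were examined as the partners of Tsf2. In the mutant comparison 7 of 24 were called higher and 1 lower, beside 9.65% and 6.26% of all genes, and the median log2 change was 0.172 beside 0.0114 over all genes. Quantile normalization gave 5 higher and 3 lower. In the wild-type comparison 0 of 24 were called by limma, beside 0.122% of all genes called higher, and 1 had an unadjusted p under 0.05, beside 7.28%. The polarity gene l(2)gl had 1626, 1601 and 1613 normalized counts in PGRP-LB Ecc15 brains, against 906, 1028 and 853 in controls, 1.74-fold higher (adjusted p = 0.0013). The adhesion genes Fas3 and Cont were higher by 1.36-fold and 1.33-fold (adjusted p = 0.00639 and 0.00677). The Na+/K+ ATPase subunit gene nrv2, which is also a glia marker, fell to 24050, 24560 and 26823 in PGRP-LB Ecc15 brains, against 31507, 32818 and 33995 in controls (0.767-fold, adjusted p = 0.0135). The call for nrv2 was lost without the control S2, mutant S1 or mutant S2 library, and the number of septate junction genes called higher ranged from 3 to 7 over all alternatives.

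The genes whose profile lay nearest to that of Tsf1 were sought among 10353 genes, by the root-mean-square distance of log2 values from the control mean over the 9 libraries on a common scale. The nearest was MtnE, a metallothionein gene, at a distance of 0.195, followed by CG3505 (0.201) and CG16965, Cyp9h1 and Mec2 (0.217 each). MtnE had 69, 85 and 53 normalized counts in PGRP-LB Ecc15 brains, against 11, 13 and 10 in controls, and 16, 29 and 17 in WT Ecc15 brains, against 11, 13 and 10 in controls of that table. For Fer1HCH the nearest were Nap1 (0.0455), CG31705 (0.0472), CG8635 (0.0499), CG13001 (0.0514) and CCT6 (0.0529), all with mean log2 differences between -0.175 and -0.042 from controls in both exposed groups. The search for like genes always returns the nearest genes, so these are descriptions with no test.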

How the data were processed

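Per the labels' protocols, RNA from pooled brains was made into stranded polyA libraries and sequenced in paired reads in a single lane. The submitters' processing notes name HISAT2 (version 2), HTSeq, featureCounts and DESeq2, with no role. Build, annotation and strand setting of the counting are not given in these sources. Of 12 deposited tables, the 2 full ones were used. Their values are whole numbers under a title of raw data, but the same control library differs between them by a constant factor (medians 1.0133, 1.0167 and 1.0210 for S1, S2 and S3), so the authors' deposited values were treated as normalized counts, a score rounded to whole numbers. They were therefore tested with limma and not with a count test. The authors' deposited fold changes (ratios), log2 fold changes and p-values come from their own comparison and are named as theirs.

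Each table was tested alone with limma 3.58.1 in R 4.3.3, with an intensity trend, on log2(value + 1), two-sided, over genes with a mean of at least 1 across the 6 libraries, with Benjamini-Hochberg adjustment over all genes tested and a threshold of 0.05. The number of counted reads per library was estimated from the integers that scaling skips or fills more than once, and this step and the tests were tested on simulated data. Gene positions and exon lengths come from Ensembl 115 (BDGP6), which matched 16839 of 17562 genes by symbol. Libraries are separate pools of brains; the marks S1 to S3 were not matched to the replicate numbers of the labels, and nothing says that the pools came from separate fly cultures, so p-values measure the spread between these pools only. The 7 genes and all gene lists were chosen with earlier results of these data known. All 7 genes are named; of each other list, up to 4 genes with the smallest adjusted p in the mutant comparison are named, and both iron regulatory genes. No sequences are shown. Alternatives were other pseudocounts, filters, scalings and variance settings, and leaving out each library.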

Additional observations from a re-analysis of the deposited data

How the results depend on the processing

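In all 14 alternatives the mutant comparison called Tsf1, Tsf3 and Mvl higher and the wild-type comparison called no member. The log2 change in the mutant comparison ranged from 2.042 to 2.408 for Tsf1, from 2.639 to 3.558 for Tsf3 and from 0.9246 to 1.20 for Mvl. In the wild-type comparison Tsf1 ranged from 0.4991 to 0.6796 (adjusted p 0.159 to 0.731). Near 0 the sign turned in the wild-type comparison for Tsf2 (0.003009 without the control S3 and 0.01555 without the WT Ecc15 S2 library, within a range of -0.03225 to 0.01555) and for Tsf3 (0.1044 without the control S2 and 0.02157 without the WT Ecc15 S3 library, within -0.1609 to 0.1044). Genes called higher over the whole wild-type table numbered 16, and 0 with no intensity trend, with a range of 0 to 19 without one library. In the mutant comparison 1292 were called higher (742 to 1059 without one library) and 838 lower (387 to 673 without one library, 519 with no intensity trend). Quantile normalization gave 1054 higher and 1298 lower there, and moved the median log2 change of all genes to -0.092 from 0.011. The cause of these shifts was not tested. No paired analysis was possible because the groups share fewer than 2 replicate numbers and the deposited columns carry none of them. Intervals rest on 3 libraries a group, and Fer3HCH lies under what this depth can compare.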

Other observations

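The exposed groups sit in separately scaled tables. After division by median-of-ratios factors over all 9 libraries (0.9885 to 1.016), which put the tables on a common scale, a single limma fit set PGRP-LB Ecc15 directly against WT Ecc15 brains. Tsf1 was 3.21-fold higher in the mutant (95% confidence interval 2.54 to 4.05, adjusted p = 0.000101), Tsf3 8.21-fold (adjusted p = 0.00109) and Mvl 1.61-fold (adjusted p = 0.00547). These 3 genes and Fer2LCH were called higher of 6 tested and 0 lower, beside 9.92% of 13252 genes called higher and 6.63% lower. Fer2LCH was 1.15-fold higher (adjusted p = 0.0450), and leaving out any 1 exposed library ended that call (adjusted p = 0.0669 to 0.144). Tsf2 (log2 difference 0.19, adjusted p = 0.0603) and Fer1HCH (0.10, adjusted p = 0.342) were not called. Both groups were exposed for the same labelled time, and genotype and any difference of strain background cannot be told apart.

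Within the mutant group the S3 library had the lowest value of Tsf1, Tsf3, Mvl, Mco1 and Zip99C, and of DptA. The other iron genes called higher in the mutant comparison did not share this, as CG8399 was lowest in S1 and IscU in S2. PGRP-LB was also lowest in S1, with 687 normalized counts beside 721 in S3. The ratio of the highest to the lowest mutant library was 1.46 for Tsf1, 1.47 for Mvl, 1.27 for Zip99C, 2.27 for DptA, 3.59 for Tsf3 and 5.59 for Mco1. The genes with the lowest value in S3 were set beside each other after their values were seen.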
